A study of Mus musculus with 12 samples.

Results

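Toll-like receptor and interleukin 1 receptor signaling was followed in cultured mouse pancreatic cancer cells through 10 genes. They encode the receptors Tlr2, Tlr3, Tlr4 and Il1r1, the coreceptor Il1rap, the shared adaptor Myd88 and the ligands Il1a, Il1b, Il18 and Il33. Members were the probe sets whose annotation gives exactly 1 gene symbol and that symbol is a gene of this set, which gave 19 of the 45037 probe sets tested. Il1rap was read by 5 probe sets, Tlr4 by 4, Tlr3 and Il1r1 by 2 each and each of the other 6 genes by 1.

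RNA was hybridized to Affymetrix mouse arrays, 12 in all, with 3 biological replicates in each of 4 groups. The mt-CCs came from a tumor of a mouse with Pdx1-Cre, LSL-K-ras G12D/+ and LSL-Trp53 R172H/+, so that they carry a mutant p53. The other groups all came from the p53-null fl-CC line, whose mouse carried Pdx1-Cre, LSL-K-ras G12D/+ and LSL-Trp53 fl/+. Into these cells went human p53 R175H, the human counterpart of mouse R172H, or an empty vector (EV), and both transfected lines were kept in 0.6 mg/ml G418. Parental fl-CCs were neither transfected nor kept in G418. All groups share the Pdx1-Cre driver, which acts in the pancreatic lineage, and the activated K-ras allele, and all were harvested at 60% confluency. Only 1 line stands for each genotype, so the p-values reflect how cultures of a line vary and carry nothing on how tumors vary.

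Toll-like receptors bind conserved molecules of microbes or of damaged cells, and interleukin 1 receptors bind cytokines of the interleukin 1 family. Both families share the intracellular TIR domain, through which Myd88 recruits the IRAK kinases and activates NFκB. TLR3 signals through Ticam1 in place of Myd88, and TLR4 uses both. Interleukin 1 binds Il1r1, which signals only once Il1rap joins it, and Il1rap also serves as coreceptor for interleukin 33. Epithelial cells, those of the pancreas included, can express these receptors as well as immune cells.

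The deposited values are log2 RMA values, on which a difference of 1 is a doubling. A value under 5 is called near background, by a limit set for this report in the absence of detection calls. If all arrays of the dimmer group were under 5, the difference is a lower bound ("at least"), measured from the brighter mean down to 5. If all arrays of both groups were under 5, no difference is given. A probe set was called at an adjusted p of 0.05 or less in limma, with no limit on the fold change. Levels are not set against each other between probe sets, since each has its own brightness.

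Over the whole series, array values ran from 1.71 to 14.64 around a median of 5.59 in every array, and replicates correlated at 0.994 to 0.996. The epithelial label was checked against 8 ductal and epithelial markers, which were above background in every group. Of these 8 markers, 6 were called lower in mt-CCs than in fl-CCs and 0 higher, beside 21.1% and 22.2% of all genes. At an unadjusted p under 0.05, all 18193 genes held 4730 lower and 4846 higher, and the counts of the markers stayed the same. Their summed level was 15.04 to 15.14 on the log2 scale in mt-CCs, 15.48 to 15.50 in p53 R175H cells, 15.66 to 15.73 in EV cells and 15.71 to 15.77 in fl-CCs. Such a sum rests mainly on the brightest markers. The median of the 8 marker means was 10.21 in mt-CCs, 12.25 in p53 R175H cells, 12.63 in EV cells and 12.61 in fl-CCs. Krt19 averaged 13.68 in mt-CCs and 13.66 in fl-CCs, while Muc1 averaged 5.74 and 11.21. Of 11 fibroblast markers, 6 were higher in mt-CCs than in the fl-CCs and 0 lower, beside the same shares of all genes. The fibroblast sums were 10.59 to 10.62 in mt-CCs and 8.39 to 8.46 in p53 R175H cells. They were 8.24 to 8.35 in EV cells and 7.86 to 8.25 in fl-CCs. Col3a1 averaged 9.50 in mt-CCs and 3.48 in fl-CCs, and Col1a1 averaged 8.74 and 5.59, while 5 of the 11 lay under 5 in every mt-CC array. Of 11 macrophage and leukocyte markers, 8 lay under 5 in all arrays of each group. Among these 11, Cd68, a lysosomal gene, was higher in mt-CCs (7.66 in mt-CCs and 5.75 in fl-CCs), Laptm5 was called lower while near background, and their sums ran from 8.64 to 8.66 in mt-CCs, 7.90 to 7.91 in p53 R175H cells, 7.85 to 8.09 in EV cells and 7.98 to 8.04 in fl-CCs. Of 3 endothelial markers, all lay under 5 in every mt-CC array and 2 did so in each other group. In RNA of whole cultures, more expressing cells and more RNA per cell cannot be told apart.

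The promoter windows of the members that differed between the lines are shown because NFκB, the end point of this pathway, binds a known κB motif. RefSeq sequence of build GRCm38.p6, from 250 bases before to 50 bases after each gene start, was at hand for 9 of the 10 members as 11 windows. Tlr4 is named only. Capitals mark matches to the κB motif, searched on both strands.
Tlr2, chr3:83841559-83841858, minus strand: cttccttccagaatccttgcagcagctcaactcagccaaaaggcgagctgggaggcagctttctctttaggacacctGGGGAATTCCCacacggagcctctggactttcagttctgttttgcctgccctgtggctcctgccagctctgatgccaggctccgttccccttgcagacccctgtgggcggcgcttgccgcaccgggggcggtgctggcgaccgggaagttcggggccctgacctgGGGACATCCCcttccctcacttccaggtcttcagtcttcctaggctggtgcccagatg
Il1rap, chr16:26581455-26581754, plus strand: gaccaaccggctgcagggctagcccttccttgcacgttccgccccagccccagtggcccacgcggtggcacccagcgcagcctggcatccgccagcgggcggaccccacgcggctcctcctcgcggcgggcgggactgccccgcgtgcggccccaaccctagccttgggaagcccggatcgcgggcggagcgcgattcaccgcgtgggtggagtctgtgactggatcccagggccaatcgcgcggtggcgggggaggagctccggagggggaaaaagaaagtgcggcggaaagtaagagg
Il1r1, upstream start, chr1:40224830-40225129, plus strand: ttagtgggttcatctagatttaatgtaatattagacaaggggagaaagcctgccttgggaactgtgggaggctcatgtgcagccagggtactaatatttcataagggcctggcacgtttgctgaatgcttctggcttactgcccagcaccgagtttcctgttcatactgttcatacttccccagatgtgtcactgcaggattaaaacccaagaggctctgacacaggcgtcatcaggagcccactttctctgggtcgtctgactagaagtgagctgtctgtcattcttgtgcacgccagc
Il1r1, downstream start, chr1:40266336-40266635, plus strand: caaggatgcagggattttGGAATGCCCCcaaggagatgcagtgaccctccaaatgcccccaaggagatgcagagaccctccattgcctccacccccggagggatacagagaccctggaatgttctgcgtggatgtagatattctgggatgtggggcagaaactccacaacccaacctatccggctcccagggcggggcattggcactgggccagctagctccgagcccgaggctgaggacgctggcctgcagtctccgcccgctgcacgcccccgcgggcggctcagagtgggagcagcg
Il33, upstream start, chr19:29924863-29925162, plus strand: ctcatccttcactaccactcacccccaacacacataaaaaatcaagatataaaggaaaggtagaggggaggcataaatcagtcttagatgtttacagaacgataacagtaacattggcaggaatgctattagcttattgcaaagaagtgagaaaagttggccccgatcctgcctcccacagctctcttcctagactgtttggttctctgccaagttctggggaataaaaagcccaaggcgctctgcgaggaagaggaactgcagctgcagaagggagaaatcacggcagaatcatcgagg
Il33, downstream start, chr19:29945540-29945839, plus strand: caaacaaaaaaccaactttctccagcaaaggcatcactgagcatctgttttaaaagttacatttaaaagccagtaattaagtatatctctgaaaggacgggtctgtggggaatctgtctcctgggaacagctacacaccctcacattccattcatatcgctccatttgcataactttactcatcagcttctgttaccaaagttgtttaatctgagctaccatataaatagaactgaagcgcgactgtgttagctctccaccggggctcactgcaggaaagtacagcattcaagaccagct
The Tlr2 window held 3 matches, of which a pair overlap by all but a single base, the first of them beginning 173 bases before the gene start, and the third begins 8 bases before it. The downstream start of Il1r1 held 1 match on its minus strand, 232 bases before the start, and Tlr3 held 1, 211 bases before it. No match was found in the windows of Il1rap, Myd88, Il1a, Il1b and Il18, in the upstream Il1r1 window or in either Il33 window. Over all 32851 RefSeq windows of this length, 8.459% held the motif, 7.808% held TGANTCA, the AP-1 motif, and 13.62% held TATAAA. Among the members TGANTCA was found in the Il1a window alone. TATAAA was found in the windows of Myd88, Il1a, Il1b and Il18 and in both Il33 windows. A match describes these letters and shows no binding, and the arrays do not tell which start was in use.

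The first question was how the line with endogenous mutant p53 differs from the p53-null line. Tlr2, Tlr4 and Il1rap were higher in mt-CCs than in the fl-CCs, and Il1r1 and Il33 were lower. By probe set, 7 of 19 were higher, 2 lower and 10 not called, where 15.4% of all 45037 probe sets were called higher and 15.3% lower. By gene, taking the probe set of smallest adjusted p, 3 of 10 were higher and 2 lower, beside 22.2% and 21.1% of 18193 genes. By gene, the members' shares on both sides were near these background shares. The 7 higher probe sets belonged to 3 genes, Tlr2, Tlr4 and Il1rap, so that count repeats genes. The median difference over the 19 probe sets was 0.24, and over all probe sets it was −0.02. In 6 of the 19, every array of both groups lay under 5.

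The receptor for lipoproteins of bacteria, Tlr2, read 8.62, 8.48 and 8.48 in mt-CCs, against 6.73, 6.91 and 6.88 in fl-CCs. All mt-CC arrays were above all fl-CC arrays, with a difference of 1.69 ± 0.14 (SE, n = 3 per group), or 3.23-fold (adjusted p = 1.29e-06, limma). The transfected cells read 7.61, 7.77 and 7.92 with p53 R175H, against 6.36, 6.84 and 6.89 with EV. These groups did not overlap either, and the difference was 1.07 ± 0.14, or 2.10-fold (adjusted p = 0.000186). EV cells and fl-CCs differed by −0.14, with a 95% interval of −0.44 to 0.16 (adjusted p = 0.604). The order of the levels was thus mt-CCs, p53 R175H cells, and then fl-CCs and EV cells, which did not differ beyond their spread. p53 R175H cells lay 0.93 above fl-CCs (adjusted p = 0.000893), and mt-CCs lay 0.76 above p53 R175H cells (adjusted p = 0.000912).

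Tlr4, the receptor for lipopolysaccharide, gave the largest differences of the members at a level above background in both lines. Its brightest probe set, 1418162_at, read 10.53, 10.42 and 10.46 in mt-CCs, against 7.98, 8.00 and 8.09 in fl-CCs. The gap was 2.45 ± 0.15, or 5.46-fold (adjusted p = 1.08e-07, limma), many times the spread within either group. The same probe set read 7.67, 7.97 and 7.73 in p53 R175H cells, against 6.85, 7.00 and 6.31 in EV cells. The transfected groups did not overlap and differed by 1.07 ± 0.15 (adjusted p = 0.000385). EV cells themselves were lower than fl-CCs, with a difference of −1.30 ± 0.15 (adjusted p = 0.000182), and p53 R175H cells and fl-CCs differed by −0.23, with an interval of −0.56 to 0.10 (adjusted p = 0.383). The higher Tlr4 of p53 R175H cells therefore held against EV cells and not against the parental line. The comparisons with EV share the EV arrays.

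The other Tlr4 probe sets were examined in turn. On 1418163_at the means were 9.15 ± 0.20 (SD) in mt-CCs, 6.74 ± 0.25 in p53 R175H cells, 6.03 ± 0.16 in EV cells and 6.70 ± 0.34 in fl-CCs. Here mt-CCs exceeded fl-CCs by 2.45 ± 0.18 and p53 R175H cells exceeded EV cells by 0.71 ± 0.18 (adjusted p = 0.0148), while EV cells were below fl-CCs, with a difference of −0.67 ± 0.18 (adjusted p = 0.0307). That EV call was lost in 9 of 22 alternatives, with an adjusted p of up to 0.117 without fl-CC replicate 1. Leaving out EV replicate 1 or p53 R175H replicate 2 took the p53 R175H difference past the threshold (adjusted p = 0.0610 and 0.0641). On 1442827_at the means were 8.41, 5.17, 4.68 and 5.76 in mt-CCs, p53 R175H cells, EV cells and fl-CCs. The mt-CC difference there was 2.65 ± 0.18 (adjusted p = 2.62e-07) and the p53 R175H difference was 0.49 ± 0.18 (adjusted p = 0.0824), with 2 of 3 EV arrays under 5. Without EV replicate 2 that difference was 0.71 (adjusted p = 0.00740). These 3 probe sets correlated with each other at 0.963 to 0.983 over the 12 arrays, a description across arrays that share their groups. The fourth, 1430695_at, lay between 2.38 and 2.71 in all arrays and read no Tlr4 signal above background.

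**Figure D1:**
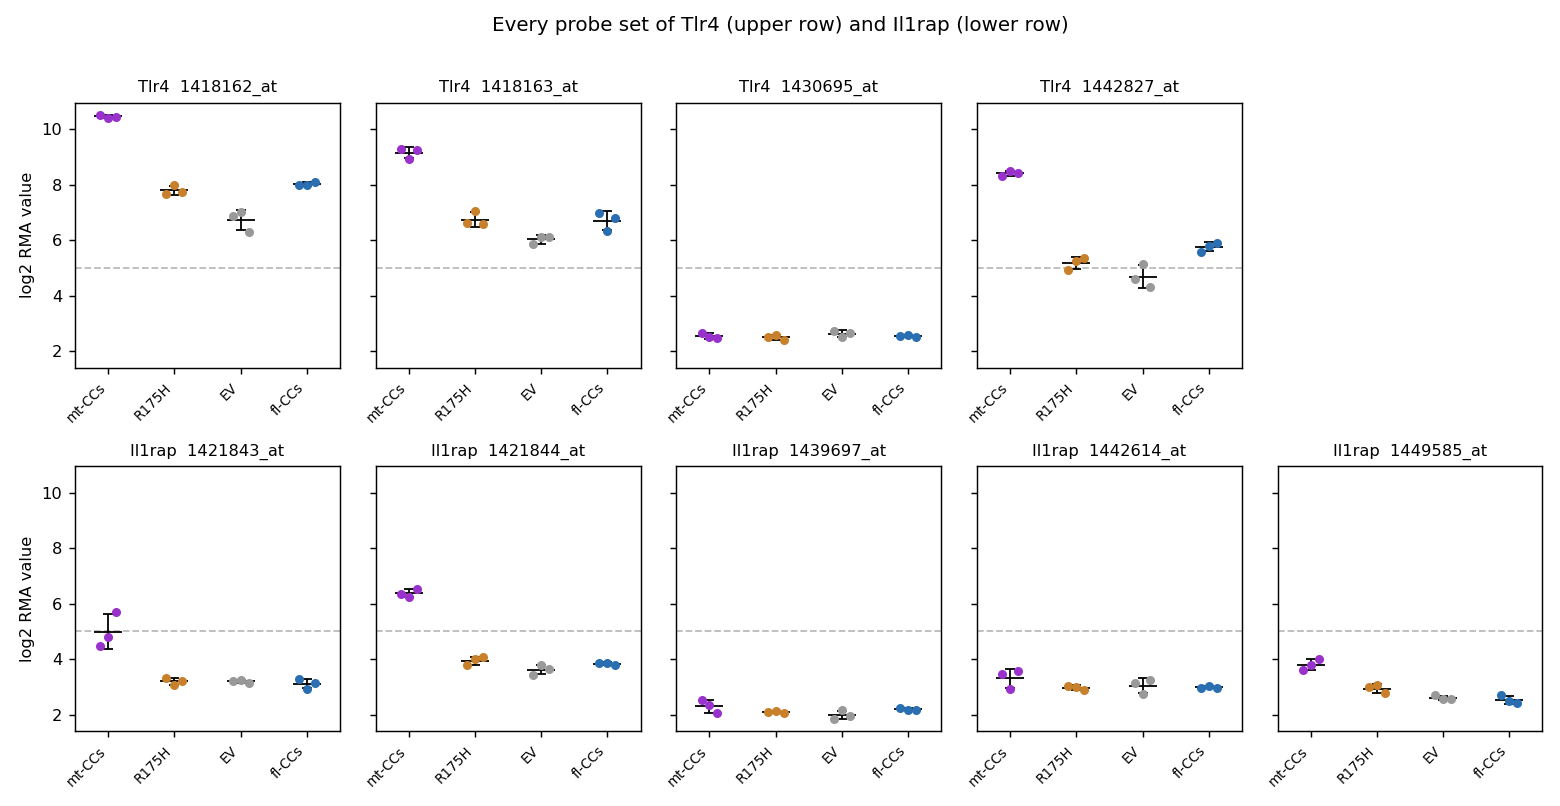
Log2 RMA values of each probe set of Tlr4 (upper row) and Il1rap (lower row) by group, with 1 point per array, a line at the mean of 3 arrays and bars of 1 SD. The dashed line marks 5, under which values are near background. In 3 of 4 Tlr4 probe sets the mt-CC arrays lie above all others and EV cells have the lowest mean. In 3 of 5 Il1rap probe sets the mt-CC arrays lie above all others.

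Tlr3, the receptor for double-stranded RNA, did not pass the test in any of the 3 comparisons. Its bright probe set, 1422782_s_at, read 9.66, 9.73 and 9.69 in mt-CCs, 9.38, 9.62 and 9.43 in p53 R175H cells, 9.67, 9.66 and 9.54 in EV cells and 9.57, 9.52 and 9.59 in fl-CCs. The mt-CC difference was 0.13, with an interval of −0.05 to 0.32 (adjusted p = 0.281), and the p53 R175H difference was −0.15, with an interval of −0.33 to 0.04 (adjusted p = 0.286). Each interval bounds the difference that these arrays allow. The suffix of this probe set marks probes that can match more than 1 transcript. The dimmer 1422781_at stayed between 4.40 and 5.35.

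**Figure D2:**
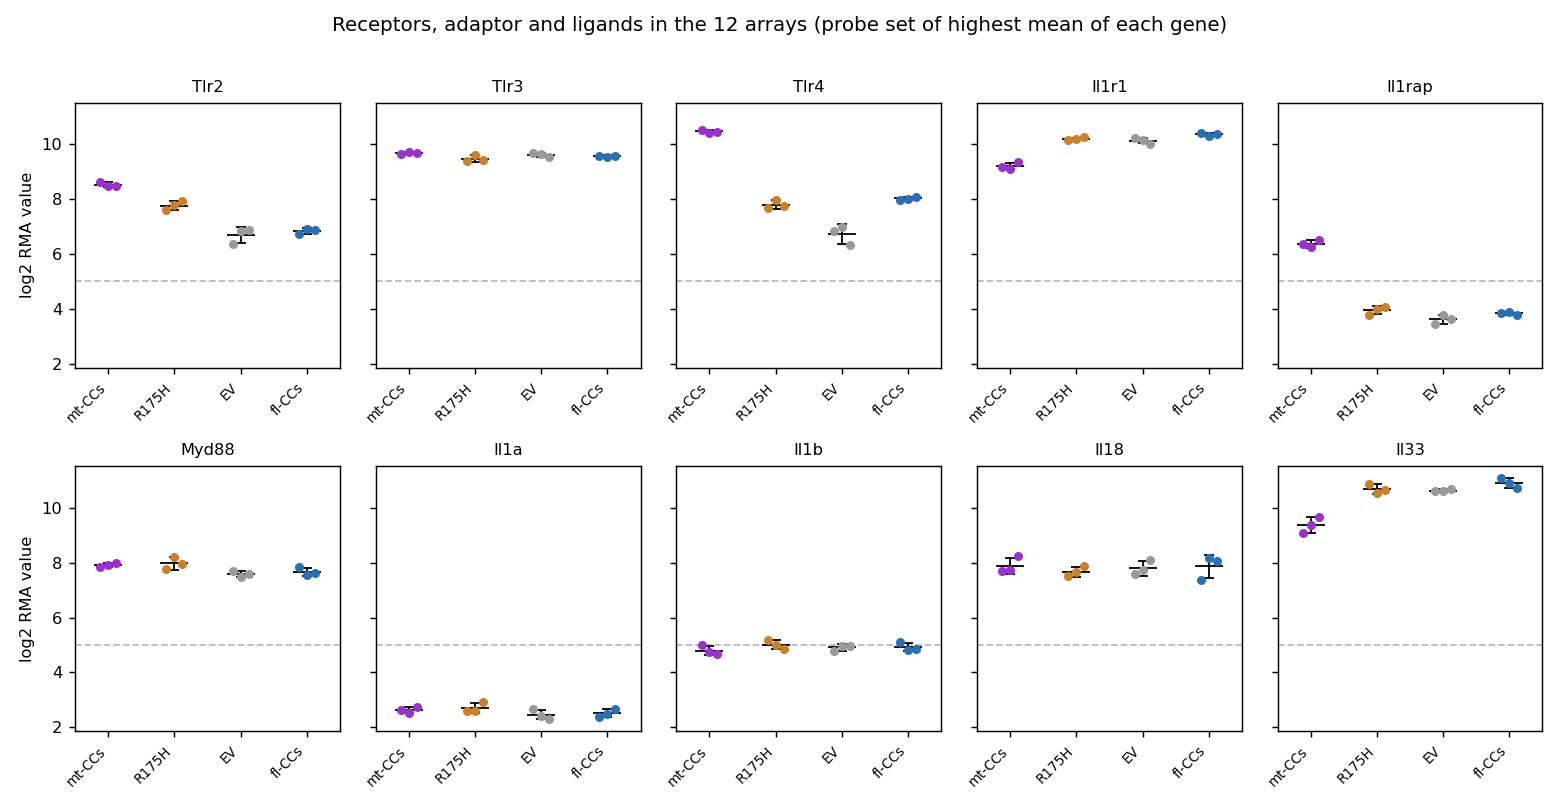
Log2 RMA values of the 10 genes, each at its probe set of highest mean, with 1 point per array, a line at the mean of 3 arrays and bars of 1 SD. The dashed line marks 5. Tlr2, Tlr4 and Il1rap are highest in mt-CCs, where Tlr4 reads 10.42 to 10.53. Il1r1 and Il33 are lowest in mt-CCs, and Il1a and Il1b stay near background in all groups.

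The chains of the interleukin 1 receptor moved in opposite directions between the lines. Il1r1, which binds the cytokine, read 9.17, 9.11 and 9.34 in mt-CCs, against 10.40, 10.30 and 10.38 in fl-CCs. Each mt-CC array was below each fl-CC array, and the difference was −1.16 ± 0.09, or 2.23-fold lower (adjusted p = 7.99e-07, limma). Il1r1 stayed well above background in both lines. It read 10.16, 10.18 and 10.25 in p53 R175H cells, against 10.22, 10.15 and 10.02 in EV cells. Those groups overlapped, with a difference of 0.07 and an interval of −0.13 to 0.26 (adjusted p = 0.678). EV cells differed from fl-CCs by −0.23 (adjusted p = 0.125). In the order of levels, fl-CCs, p53 R175H cells and EV cells followed each other without a call, although every fl-CC array lay above every transfected array. The mt-CCs lay 0.92 below EV cells (adjusted p = 5.82e-06). The second probe set, 1459777_at, lay under 2.35 in all arrays.

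Il1rap, the accessory chain, was above background in mt-CCs alone. On its brightest probe set, 1421844_at, it read 6.37, 6.24 and 6.52 in mt-CCs, against 3.85, 3.88 and 3.78 in fl-CCs. It was higher in mt-CCs by at least 1.37 on the log2 scale (adjusted p = 4.68e-09, limma). The transfected cells read 3.78, 3.99 and 4.06 with p53 R175H, against 3.44, 3.77 and 3.64 with EV, near background in both (adjusted p = 0.0654). Leaving out EV replicate 2 or p53 R175H replicate 1 brought this under the threshold (adjusted p = 0.0484 and 0.0401), at levels that remained near background. Probe set 1421843_at read 4.48, 4.79 and 5.71 in mt-CCs, against 3.27, 2.93 and 3.14 in fl-CCs, and was called (adjusted p = 6.34e-05) although 2 of 3 mt-CC arrays lay under 5. Probe set 1449585_at was also called (adjusted p = 6.39e-06) with means of 3.80 in mt-CCs and 2.54 in fl-CCs, both near background. These 3 correlated at 0.933 to 0.941 over the 12 arrays. The remaining pair, 1439697_at and 1442614_at, lay under 3.57 in every array and was not called.

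Myd88, the adaptor that both receptor families share, differed little between the lines. It read 7.85, 7.90 and 7.98 in mt-CCs, against 7.84, 7.54 and 7.62 in fl-CCs, a difference of 0.24 with an interval of −0.02 to 0.51 (adjusted p = 0.162, limma). The p53 R175H cells read 7.75, 8.19 and 7.97, against 7.71, 7.49 and 7.57 in EV cells. The groups did not overlap, but the lowest p53 R175H array lay close above the highest EV array, and the difference of 0.38 ± 0.12 only just passed the test (adjusted p = 0.0452). It was lost in 13 of 22 alternatives. Leaving out any of 9 of the 12 arrays was enough, most of all p53 R175H replicate 2 (adjusted p = 0.174), as was fitting the transfected groups alone (adjusted p = 0.0853).

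Among the ligands, Il33 differed between the lines. This cytokine of epithelial nuclei, released on damage, read 9.09, 9.37 and 9.68 in mt-CCs, against 11.08, 10.90 and 10.73 in fl-CCs. Its difference was −1.52 ± 0.15, or 2.88-fold lower in mt-CCs (adjusted p = 6.00e-06, limma). It read 10.88, 10.53 and 10.65 in p53 R175H cells, against 10.60, 10.61 and 10.68 in EV cells. The transfected groups overlapped, with a difference of 0.06 and an interval of −0.26 to 0.38 (adjusted p = 0.855). As for Il1r1, the fl-CCs, p53 R175H cells and EV cells followed each other without a call, and mt-CCs lay 1.25 below EV cells (adjusted p = 3.22e-05).

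The remaining ligands did not pass the test in any comparison. Il18, which is made as an inactive precursor, read 7.68, 7.73 and 8.23 in mt-CCs, against 7.37, 8.16 and 8.06 in fl-CCs. Its groups overlapped, and the interval of the difference ran from −0.46 to 0.49 (adjusted p = 0.971, limma). In the transfected cells Il18 averaged 7.67 ± 0.19 (SD) with p53 R175H and 7.80 ± 0.26 with EV. Il1b lay between 4.68 and 5.18 in all arrays, and Il1a between 2.31 and 2.92. Il1a was under 5 in every array and Il1b at or close to that level, so that no difference is given for either.

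The second question was how p53-null cells with human p53 R175H differ from those with the empty vector. Of the 19 probe sets, 4 were higher in p53 R175H cells than in EV cells, none was lower and 15 were not called, where 10.2% of all probe sets were higher and 10.2% lower. These 4 were those of Tlr2, Myd88 and 2 of Tlr4, so 3 of 10 genes were higher, beside 15.3% of genes called higher and 15.1% called lower. At an unadjusted p under 0.05, 7 probe sets were higher and 0 lower. Counted by gene and not by probe set, 3815 of all 18193 genes were higher and 4047 lower at that p. In 8 of the 19 both groups lay near background. EV cells against fl-CCs gave 0 higher and 3 lower, all of Tlr4, where 6.45% of probe sets were higher and 5.66% lower. At an unadjusted p under 0.05 that comparison held 0 higher and 4 lower, where by gene 3337 of all 18193 were higher and 3251 lower. p53 R175H cells set against fl-CCs gave 2 calls of 19, Tlr2 and the near-background 1449585_at of Il1rap, where 15.0% of probe sets were called in either direction. In the wider comparisons of mt-CCs with EV cells and with p53 R175H cells, 33.0% and 33.1% of probe sets were called, and 9 of the 19 members were.

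**Figure D3:**
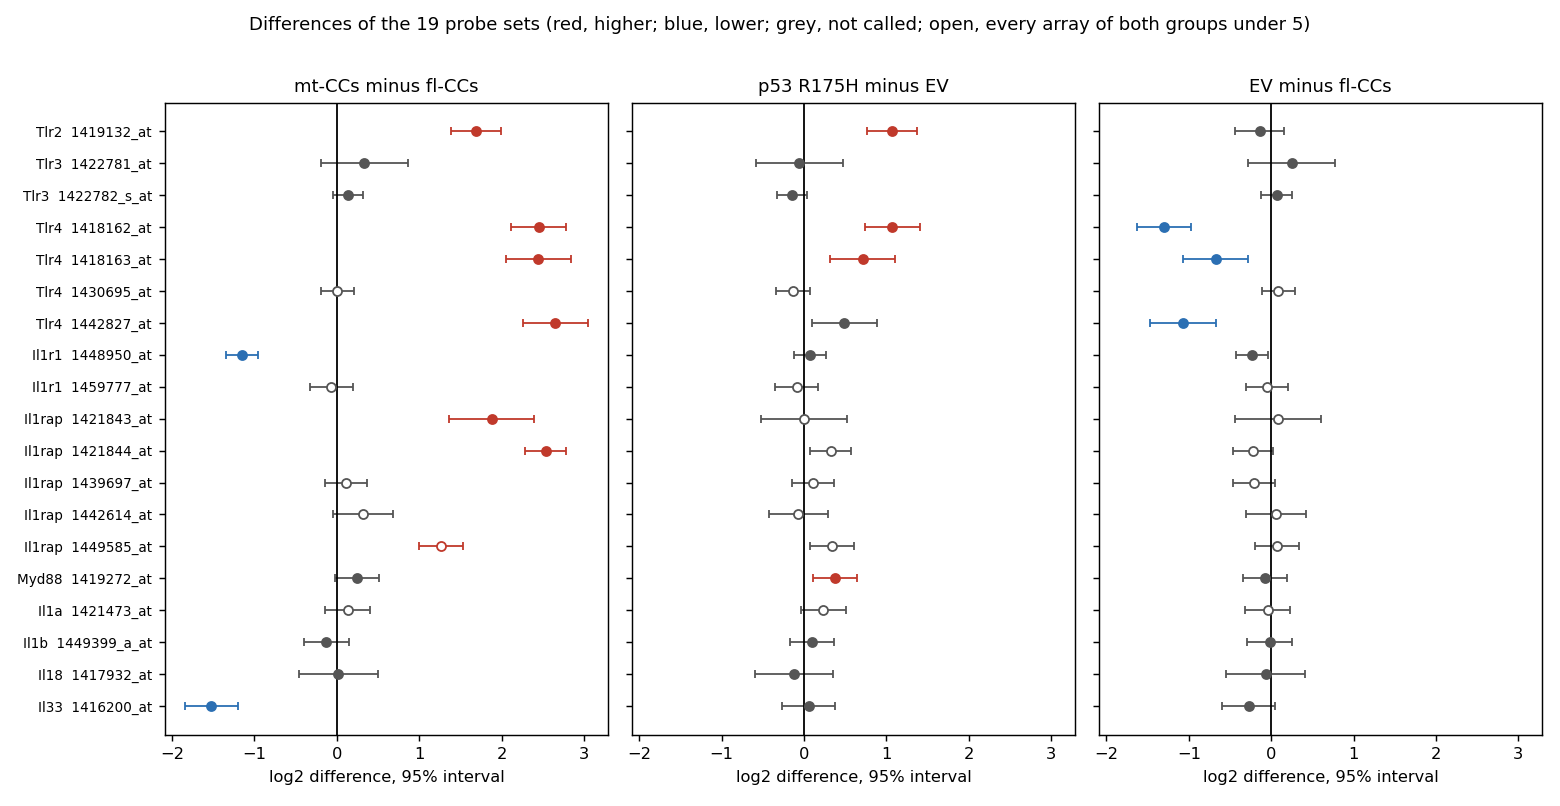
Log2 differences of the 19 probe sets with 95% intervals in 3 comparisons (red, called higher; blue, called lower; grey, not called; open, every array of both groups under 5). In mt-CCs against fl-CCs the calls run from −1.52 for Il33 to 2.65 for a Tlr4 probe set. In p53 R175H against EV cells the calls are Tlr2, Myd88 and a pair of Tlr4 probe sets, and in EV cells against fl-CCs they are 3 Tlr4 probe sets, all lower.

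The mt-CC difference against fl-CCs was next set against the p53 R175H difference against EV cells. The difference of both differences, which use separate arrays, was tested. It was called for 9 of 19 probe sets, 7 higher and 2 lower, where 13.6% of all probe sets were higher and 13.1% lower. The 7 were those of Tlr2, Tlr4 and Il1rap. By gene, 3 of 10 were higher and 2 lower, where 3652 of 18193 genes were higher and 3508 lower. For Tlr4 the mt-CC difference exceeded the p53 R175H difference by 1.38 ± 0.22, 1.73 ± 0.25 and 2.16 ± 0.26 on its 3 bright probe sets (adjusted p = 0.000446, 0.000272 and 5.03e-05, limma). For Il1r1 the gap was −1.23 ± 0.13 (adjusted p = 1.54e-05) and for Il33 −1.58 ± 0.21 (adjusted p = 0.000113). The calls of 3 Il1rap probe sets rest on values near background in most or all groups, so no size is given for them here. The higher Tlr4 of p53 R175H cells was called against EV cells on 1418162_at and 1418163_at. Against fl-CCs it was not called on these or on 1442827_at (adjusted p = 0.383, 0.927 and 0.0502). Tlr2 was higher beside mutant p53 in both settings, and its gap of 0.62 ± 0.19 was close to the threshold (adjusted p = 0.0328). Leaving out any of 7 arrays took it past the threshold, as far as an adjusted p = 0.0796 without EV replicate 2. It was also lost with all arrays kept, without moderation of the variances (adjusted p = 0.0607) and with array weights (adjusted p = 0.0554). Myd88 had a gap of −0.13, with an interval of −0.51 to 0.24 (adjusted p = 0.640).

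The other genes of the pathway were followed through 7 lists by role, 69 genes in all, of which 61 were measured. In mt-CCs against fl-CCs, 15 were higher, 9 lower and 37 not called, where 22.2% of all genes were higher and 21.1% lower, with a median difference of 0.09 where all genes had −0.01. In p53 R175H against EV cells, 14 were higher, 12 lower and 35 not called, where 15.3% of all genes were higher and 15.1% lower, with a median of −0.09 where all genes had −0.03. These shares of all genes are the background for the counts of each list as well, and with so few genes in a list no count is read as particular to it. In EV cells against fl-CCs, 8 were higher and 6 lower, where 10.4% of genes were higher and 9.20% lower. A gene stands in these counts with its probe set of smallest adjusted p, and its other probe sets are named where they differ.

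Coreceptors and chaperones carry ligands to TLR4 or fold the receptors. Of 9, 2 were higher and 1 lower in mt-CCs, and 3 were higher and 1 lower in p53 R175H cells. Ly96, which encodes the MD-2 partner of TLR4, read 8.77, 8.96 and 9.01 in mt-CCs, against 8.02, 8.52 and 8.31 in fl-CCs, a difference of 0.63 ± 0.13 (adjusted p = 0.00201, limma). Cd14, which hands lipopolysaccharide to TLR4, was lower in mt-CCs, with a difference of −0.27 ± 0.09 (adjusted p = 0.0446), and higher in p53 R175H than in EV cells by 0.45 ± 0.09 (adjusted p = 0.00471). In Cd14, EV cells were below fl-CCs (difference −0.37, adjusted p = 0.0221), and p53 R175H cells and fl-CCs differed by 0.08 (adjusted p = 0.667). Lbp, the secreted protein that extracts lipopolysaccharide from membranes, read 11.38, 11.45 and 11.58 in p53 R175H cells, against 9.06, 9.03 and 9.06 in EV cells. That is a difference of 2.42 ± 0.15 (adjusted p = 6.75e-07), and its second probe set gave 1.96. EV cells were below fl-CCs, which read 10.47, 11.15 and 11.16 (difference −1.88 ± 0.15). The p53 R175H cells lay 0.54 above fl-CCs in Lbp (adjusted p = 0.0333). Of the chaperone genes, Hsp90b1 was higher in mt-CCs by 0.27 on 1 of 2 probe sets and Cnpy3 was lower in p53 R175H than in EV cells (difference −0.51 ± 0.11).

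Of 7 other genes of the interleukin 1 receptor family, 2 were higher and 1 lower in mt-CCs, and 1 was higher and 2 lower in p53 R175H cells. Sigirr, a receptor that dampens TLR and interleukin 1 signaling, read 8.66, 8.78 and 8.75 in mt-CCs, against 7.35, 7.58 and 7.52 in fl-CCs (difference 1.25 ± 0.10, adjusted p = 8.21e-07, limma). With p53 R175H it read 7.31, 7.05 and 7.28, against 8.24, 8.23 and 8.13 with EV, a difference of −0.99 ± 0.10 (adjusted p = 2.34e-05). EV cells lay 0.72 above fl-CCs (adjusted p = 0.000489), so the p53 R175H level was near that of the parental line. Il18rap, the accessory chain for interleukin 18, was higher by 0.83 ± 0.14 in mt-CCs and by 0.87 ± 0.14 in p53 R175H cells against EV. Its second probe set gave 0.61 in mt-CCs (adjusted p = 0.0230) and 0.53 in p53 R175H cells (adjusted p = 0.0606). Il18r1, the chain that binds interleukin 18, was lower in p53 R175H than in EV cells by at least 0.45, with EV cells at 5.13 to 5.87, and its call as lower in mt-CCs lay near background. EV cells lay 0.82 above fl-CCs in Il18r1 (adjusted p = 0.0179), with 2 of 3 fl-CC arrays under 5. The p53 R175H cells and fl-CCs were not called apart (adjusted p = 0.282).

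The ligand list of 7 held 1 gene that was higher in mt-CCs, Il1rn, which encodes the antagonist of the interleukin 1 receptor. Il1rn read 10.20, 10.12 and 10.17 in mt-CCs, against 7.67, 7.68 and 7.62 in fl-CCs. The difference was 2.51 ± 0.08, or 5.70-fold (adjusted p = 3.91e-10, limma), and the other Il1rn probe sets gave 2.22 and 2.31. In transfected cells it ran the other way, with 8.01, 7.97 and 7.77 in p53 R175H cells, against 9.22, 9.33 and 9.22 in EV cells, a difference of −1.34 ± 0.08 (adjusted p = 6.75e-07). EV cells lay 1.60 above fl-CCs (adjusted p = 4.87e-07). The p53 R175H cells lay 0.26 above fl-CCs and were not called apart from them (adjusted p = 0.0600). Il1f6, called higher in p53 R175H cells, was near background in both transfected groups.

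**Figure D4:**
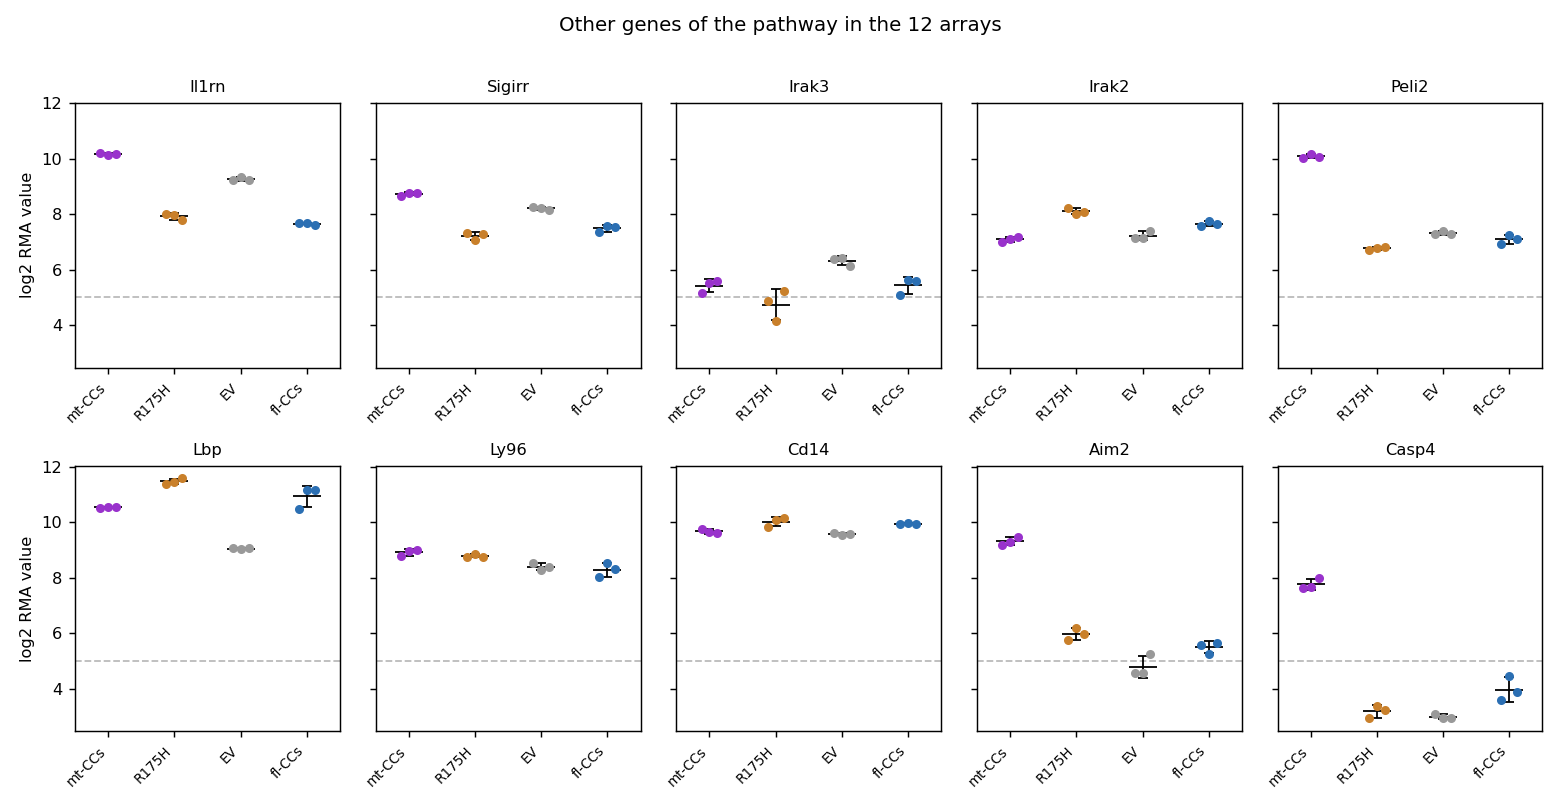
Log2 RMA values of 10 other genes of the pathway by group, with 1 point per array, a line at the mean of 3 arrays and bars of 1 SD. The dashed line marks 5. Il1rn, Sigirr, Peli2, Aim2 and Casp4 are highest in mt-CCs. Lbp is lowest in EV cells, at 9.03 to 9.06, and Irak3 is highest in them.

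Of 17 adaptors and proximal kinases, 5 were higher and 4 lower in mt-CCs, and 6 were higher and 7 lower in p53 R175H cells. The ubiquitin ligase gene Peli2 read 10.02, 10.15 and 10.07 in mt-CCs, against 6.93, 7.25 and 7.09 in fl-CCs, a difference of 2.99 ± 0.09 (adjusted p = 1.98e-10, limma) that its other probe sets gave as 2.66 and 3.02. In transfected cells Peli2 was lower, at 6.71, 6.79 and 6.81 with p53 R175H, against 7.29, 7.40 and 7.28 with EV (difference −0.55 ± 0.09, adjusted p = 0.00127). There its other probe sets gave −0.47 (adjusted p = 0.0128) and −0.03 (adjusted p = 0.905). Its relative Peli1 was lower in mt-CCs (difference −0.95 ± 0.08), and 3 of its 5 probe sets were not called. Tollip, which restrains IRAK activity, was lower in mt-CCs (difference −0.65 ± 0.12, and −0.33 on its other probe set). Ube2n, a ubiquitin-conjugating enzyme of the pathway, was higher in mt-CCs by 1.77 ± 0.12 on 1 probe set and was not called on the other, which is the brighter (adjusted p = 0.989). The kinase genes Irak2 and Irak1 were higher in p53 R175H than in EV cells by 0.88 ± 0.10 and 0.78 ± 0.08 (adjusted p = 9.59e-05 and 5.59e-05), while EV cells differed from fl-CCs by −0.43 and −0.46 in the same genes. Irak3, the inhibitory member of that family, read 4.87, 4.13 and 5.21 in p53 R175H cells, against 6.39, 6.42 and 6.14 in EV cells, with a difference of −1.58 ± 0.24 (adjusted p = 0.000695), and its second probe set gave −0.75 (adjusted p = 0.00751). In Irak3, too, EV cells were above fl-CCs, by 0.89 ± 0.24 (adjusted p = 0.0348). The mt-CCs and fl-CCs differed by −0.01 (adjusted p = 0.981). The p53 R175H cells and fl-CCs were not called apart in Irak3 (adjusted p = 0.0838).

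Of 5 genes of the interferon branch, which TLR3 and TLR4 reach through Ticam1, 1 was higher and 2 lower in mt-CCs. Irf3, the transcription factor of that branch, was lower in mt-CCs, with a difference of −0.70 ± 0.10 (adjusted p = 0.000161, limma), and higher in p53 R175H than in EV cells by 0.33 ± 0.10 (adjusted p = 0.0383). Of its 4 probe sets, 2 were called in mt-CCs and 1 in p53 R175H cells, where the others gave 0.08 to 0.37 (adjusted p = 0.175 to 0.799). Irf5 was lower in mt-CCs (difference −0.55 ± 0.11) on 1 of 2 probe sets, and the kinase gene Tbk1 was higher by 0.26 ± 0.09 (adjusted p = 0.0449) on 1 of 2. Of 8 inflammasome and processing genes, 4 were higher and none lower in mt-CCs, also at an unadjusted p under 0.05. Of all 18193 genes, 4846 were higher and 4730 lower at that unadjusted p. Aim2, a sensor of DNA in the cytosol, read 9.19, 9.30 and 9.47 in mt-CCs, against 5.59, 5.26 and 5.64 in fl-CCs, a difference of 3.83 ± 0.18, or 14.2-fold (adjusted p = 9.76e-09). With p53 R175H it read 5.76, 6.19 and 5.97, against 4.57, 4.56 and 5.24 with EV. The difference was 1.18 ± 0.18 (adjusted p = 0.000743), with 2 of 3 EV arrays under 5. EV cells were below fl-CCs (difference −0.70, adjusted p = 0.0280). In Aim2, p53 R175H cells and fl-CCs differed by 0.48 and were not called apart (adjusted p = 0.114). Casp4, a caspase that senses lipopolysaccharide in the cytosol, was higher in mt-CCs by at least 2.76 (adjusted p = 1.91e-08), with 7.62, 7.65 and 8.00 in mt-CCs and 3.57 to 4.44 in fl-CCs. It lay near background in both transfected groups. Casp8 was lower in p53 R175H than in EV cells (difference −0.47 ± 0.09), and EV cells lay 0.67 above fl-CCs. The p53 R175H cells and fl-CCs were not called apart in Casp8 (adjusted p = 0.153).

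Of 8 other Toll-like receptors, none was called in p53 R175H against EV cells in limma, and 1 had an unadjusted p under 0.05. In mt-CCs against fl-CCs 1 was called lower, Tlr1, a gene that averaged 3.73 in mt-CCs and 4.51 in fl-CCs and so lay near background.

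The genes whose pattern over the 12 arrays was most like that of a member were sought among 2956 genes that varied as much, each at its probe set of highest mean. Nearest to Tlr2 were Slc22a15 (Pearson r = 0.992), Ehf (0.984) and Abca1 (0.983). Nearest to Tlr4 were Fbln1 (0.990), Card6 (0.989) and Gstm2 (0.988). Il1r1 was followed most closely by Shmt1 (0.992), 1500015A07Rik (0.991) and Utp4 (0.990), and Il1rap by Lpcat2 (0.994), Cxcl12 (0.993) and 2610528A11Rik (0.993). For Il33 they were Efna1 (0.981), Bmyc (0.977) and Mtmr7 (0.976). These correlations rest largely on group means, since the arrays form 4 groups of 3, and are given as a description.

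Differences between mt-CCs and fl-CCs coincide with other differences between these lines, which come from separate tumors. The epithelial marker sum was lower and the fibroblast marker sum higher in mt-CCs, as given above, and the part of these shifts in the Tlr2, Tlr4, Il1rap, Il1r1 and Il33 differences was not tested. Mutant p53 and line of origin cannot be told apart in this comparison. In p53 R175H against EV cells, each group is a single transfected line, so p53 R175H and other differences between these lines cannot be told apart.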

How the data were processed

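RNA of 12 cultures, 3 in each of 4 groups, was read on Affymetrix mouse arrays. The authors deposited log2 expression values made by robust multi-array averaging (RMA) after array quality control; the software versions are not given in the sources used here. Their methods name Partek for the group tests, in place of which limma 3.58.1 was run in R 4.3.3 on these log2 values. After removal of 64 control probe sets from 45101, 1 fit of the 4 group means covered 45037 probe sets, with Benjamini-Hochberg adjustment over all of them and a call at 0.05 or less. A gene stands with its probe set of smallest adjusted p. The fit was tested on simulated data with known changes. Of the probe sets, 34945 had 1 gene symbol and 932 had several, which named no gene. For 34741 the symbol was matched by gene number to the RefSeq table of GRCm38.p6, and 0 symbols changed.

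Values were reported for all 10 genes of the set and for marker genes. In each pathway list, the 2 genes of greatest rise and the 2 of greatest fall were named in each mutant p53 comparison, among those called with a brighter group mean of at least 5. For members whose group means spanned at least 1 and reached 5, the 3 likest genes were named. Members and lists were chosen with earlier results of these data known. Alternatives changed the arrays in the fit, the replicate block, the variance model, array weights, the filter on dim probe sets, the scaling, a fold limit and the probe set that stands for a gene, and left out each array in turn. Scanner files were not used here, so background correction and scan batch were not varied. The gene for p53 itself is not analysed here. The number of arrays limits the precision.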

Additional observations from a re-analysis of the deposited data

Results flagged for a closer look

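Results of 5 genes are listed here because the mt-CC difference against fl-CCs differed from the p53 R175H difference against EV cells in a test of the difference itself (limma, adjusted over all probe sets). The values are the mt-CC difference minus the p53 R175H difference on the log2 scale. Tlr4 gave 1.38 on 1418162_at, 1.73 on 1418163_at and 2.16 on 1442827_at (adjusted p = 0.000446, 0.000272 and 5.03e-05). The fitted values for Il1rap were 1.88 on 1421843_at, 2.21 on 1421844_at and 0.93 on 1449585_at (adjusted p = 0.00115, 6.76e-07 and 0.00157). They are not measured sizes, since p53 R175H cells, EV cells and fl-CCs were near background on all of these, 2 of 3 mt-CC arrays were under 5 on 1421843_at, and every array was under 5 on 1449585_at. Il1r1 gave −1.23 (adjusted p = 1.54e-05) and Il33 gave −1.58 (adjusted p = 0.000113), while neither was called between p53 R175H and EV cells. Tlr2 gave 0.62 (adjusted p = 0.0328), the smallest of these values, with a higher level beside mutant p53 in both settings. Its call was lost without moderation of the variances (adjusted p = 0.0607), with array weights (adjusted p = 0.0554) and without any of 7 arrays. With 3 arrays in each group, no group was searched for single deviating arrays.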

How the results depend on the processing

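No member difference that was called changed direction under any alternative run. Only array weights, the scaling and leaving out an array can move a difference. The other alternatives leave the difference of a probe set as it is and could not have changed its direction. In mt-CCs against fl-CCs, 9 probe sets were called, against 6 once probe sets with a mean under 5 or under 6 were left out, which removes the dim Il1rap probe sets from the test, and 9 to 10 with an array left out. In p53 R175H against EV cells the 4 calls became 2 when a log2 difference of 1 or more was required, which Myd88 and 1418163_at of Tlr4 miss, and ran from 2 (without EV replicate 1 or without p53 R175H replicate 2) to 5 (without EV replicate 2 or without p53 R175H replicate 1). EV cells against fl-CCs gave 3 calls, and 2 to 3 with an array left out. There 1418163_at of Tlr4 was lost in 9 of 22 alternatives (adjusted p up to 0.117, without fl-CC replicate 1), and Il1r1 was gained with probe sets of mean 6 or more (adjusted p = 0.0448). The difference of both differences gave 9 calls, and 8 to 10 with an array left out. By gene, the probe set of highest mean gave 5, 3, 1 and 5 calls in these 4 comparisons, as did that of smallest adjusted p. A fit of only the groups compared was not run for the difference of both differences, which uses every group. Same-numbered cultures did not deviate together (correlations of −0.0897 to 0.0582, 0 of 18 pairs over 0.1), so the numbers do not pair the samples. With the replicate block, 9, 3, 2 and 9 probe sets were called, and the calls of Myd88 (adjusted p = 0.0788) in p53 R175H cells and of 1418163_at in EV cells (adjusted p = 0.0559) were lost. With 3 arrays per group, small differences could be missed, and levels near background hold no measured difference.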
